A study of Rattus norvegicus with 6 samples.

Results

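Brd2 and the genes that control the release of paused RNA polymerase II were followed in rat neural stem/progenitor cells (NSPCs) grown on carbon films of different conductivity. The set was defined by gene symbol and had 8 members among the 17048 rows of the count tables. The members were the BET genes Brd2 and Brd3, the P-TEFb genes Cdk9, Ccnt1 and Ccnt2, and the 7SK genes Hexim1, Larp7 and Mepce. Of these, 7 had counts and were tested, and Ccnt1 was at 0 in every library. Brd2 was the starting point, because its lower level on the Medium and Low films than on the High film was already known from these data, and the other 7 members were added for their roles around it. The values of the members against High are therefore given as a description without p-values, with the calls of the fit stated only as counts. For the members only the comparison of Low with Medium is given as a test. Its fold change compares no High library, but its spread was estimated from all 6 libraries, High included.

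The study asked how the conductivity of a culture substrate affects NSPCs. The cells were wild-type primary cells from the telencephalon of embryonic Sprague-Dawley rats. They were kept for 24 h in medium that maintains stemness, and this was common to all groups. All films were of carbon nanotube and graphene oxide nanoribbon, coated with poly-D-lysine and laminin. The groups differed in the film, named High, Medium and Low after its conductivity. Each had 2 libraries, and all 6 libraries were analysed. In the paper's adhesion assays, less poly-D-lysine was put on Medium than on High and Low, to make the laminin amounts similar. The sequencing methods do not restate the coating, and its part in the result was not tested. Nothing in the labels or methods says that the 2 libraries of a film came from separate cultures, so the errors and p-values measure the spread between these libraries, which may be technical.

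BET proteins carry paired bromodomains that bind acetylated lysines on histone tails, and they bring transcription regulators to active chromatin. After initiation, RNA polymerase II often pauses just downstream of the start site, held there by the factors NELF and DSIF. The kinase P-TEFb, made of Cdk9 and a T-type cyclin, phosphorylates the polymerase and these factors and so permits productive elongation. A large share of P-TEFb is held inactive in a particle built on the small nuclear RNA 7SK, in which Hexim1 inhibits the kinase, Larp7 binds and stabilises the RNA, and Mepce caps its end.

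RefSeq promoter sequences on the GRCr8 build were found for 7 of the 8 members, Cdk9 being the exception. GRCr8 is not the build of the count tables, which the submitters' processing notes give as rn6, and the sequences are shown as background on the genes. In the 250 bases before the start, Brd2 and Hexim1 shared the run TATATATA, whose complement reads the same, at 54 and 59 bases before the start. This run was held by 0.863% of 33469 promoters of that length and was chosen for display after the sequences were seen. The 100 bases before each start are given 5′ to 3′ with the run in capitals, Brd2 from chr20:4729979-4730078 and Hexim1 from chr10:88562789-88562888, both on the plus strand.
Brd2: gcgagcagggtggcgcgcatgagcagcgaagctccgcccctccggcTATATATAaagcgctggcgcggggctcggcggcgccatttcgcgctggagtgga
Hexim1: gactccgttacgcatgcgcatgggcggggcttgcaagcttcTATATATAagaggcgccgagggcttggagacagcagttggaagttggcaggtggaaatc
Other Brd2 transcripts are annotated from starts further upstream, so this window lies within the span of the gene. Of the motifs searched on both strands, the GC box GGGCGG was held by 6 of the 7 members, all but Brd3, and by 30.5% of all promoters. The CCAAT box was held by 5 of the 7, all but Brd3 and Mepce, and by 34% of all promoters. The TATA box TATAAA, which overlaps the TATATATA run, was held by Brd2 alone of the members and by 12.9% of all promoters. The cAMP response element TGACGTCA was held by Brd2 and Larp7 and by 1.59% of all promoters. The antioxidant response element core TGACNNNGC was held by Larp7 and by 10.1% of all promoters, and the heat shock element, searched as spaced repeats of its core, was held by 0 of the 7 members and by 0.663% of all promoters. A match describes these letters only, and its part in the levels of the genes was not tested.

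The 6 libraries held between 5124863 and 6213676 counts, and between 5355 and 7809 rows had a count. Levels are given as CPM, counts scaled to a common library size with TMM factors, as mean ± SD over n = 2 libraries. The reads come from the 3′ end of transcripts and were not corrected for gene length, so levels were compared between films and not between genes. With no molecular identifiers, a floor of 3 counts, which is between 0.435 and 0.716 CPM, covers counting error only. All 6 markers of neural stem/progenitor cells were detected, with a summed level of 2575 to 2867 CPM on High, 4116 to 4524 CPM on Medium and 3620 to 4711 CPM on Low. Of the neuron markers 5 of 6 were detected, with Rbfox3 at 0, and they summed to 12.4 to 12.6 CPM on High, 0.172 to 0.984 CPM on Medium and 29.7 to 33.9 CPM on Low. The close sums came from different genes. Stmn2 had 60 counts in High replicate 1 only, and Snap25 had 52 in High replicate 2 only. On Low, replicates 1 and 2 had 96 and 72 counts of Tubb3, 138 and 20 of Map2, and 0 and 85 of Dcx. The biological coefficient of variation shared by all genes was 1.43, which is a large spread.

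Brd2, which reads acetylated histones and is expressed in most dividing cells, was higher on the High film than on either other film, and its replicates were close. The counts were 5474 and 4017 on High, 1552 and 1973 on Medium, and 1241 and 910 on Low. In CPM these were 1128 and 958 on High, 266 and 324 on Medium, and 180 and 153 on Low. The groups did not overlap, and the order High, Medium, Low held for every library. The means were 1043 ± 120, 295 ± 40.5 and 166 ± 19.1 CPM, so that High was 3.54 times Medium and 6.27 times Low, while the 2 libraries of a film differed by 1.18 to 1.21 times. In the fit of all 6 libraries the log2 fold change was -2.24 with a standard error (SE) of 0.26 for Low and Medium together against High, -2.65 with an SE of 0.33 for Low and -1.82 with an SE of 0.32 for Medium.

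Brd2 was the only member called at an adjusted p of 0.05 by edgeR's quasi-likelihood test for Low and Medium against High, where 0.129% of the 7729 genes tested were called, and for Low against High, where 0.0518% were called. No member was called for Medium against High, where 0.0129% were called. These 3 contrasts share the High libraries and chose Brd2, so nothing is read from the counts. With the same genes tested and any 1 of the 6 libraries left out, no member was called in these contrasts, whereas Brd2 was called in all 6 such fits for Low and Medium against High when the filter was reapplied, an alternative chosen after seeing the data. In the contrast of Low and Medium with High, libraries that did not overlap in the direction of lower were found for 10.1% of all genes tested.

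The RNA composition of the libraries differed beside this. The share of counts on ribosomal RNA was 26.1% and 38.4% on High, 7.27% and 13.0% on Medium, and 7.16% and 7.64% on Low. Without these rows the log2 fold change of Brd2 for Low and Medium against High was -2.24, and with library sizes as the only scaling it was -1.85, where the median of all genes moved by 0.38. The summed progenitor markers were also lower on High than on the other films. Most of this sum was Vim, with 10418 and 8301 counts on High, 18042 and 18242 on Medium, and 17642 and 21925 on Low, and Sox2 and Nes had the same direction. Fabp7 had 995 and 944 counts on High, 1991 and 952 on Medium, and 292 and 706 on Low, and Hes1 and Pax6 overlapped between the films. The part of these markers and of the ribosomal RNA share in the result was not tested. In bulk RNA, fewer cells of a type and less RNA per cell cannot be told apart.

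**Figure D1:**
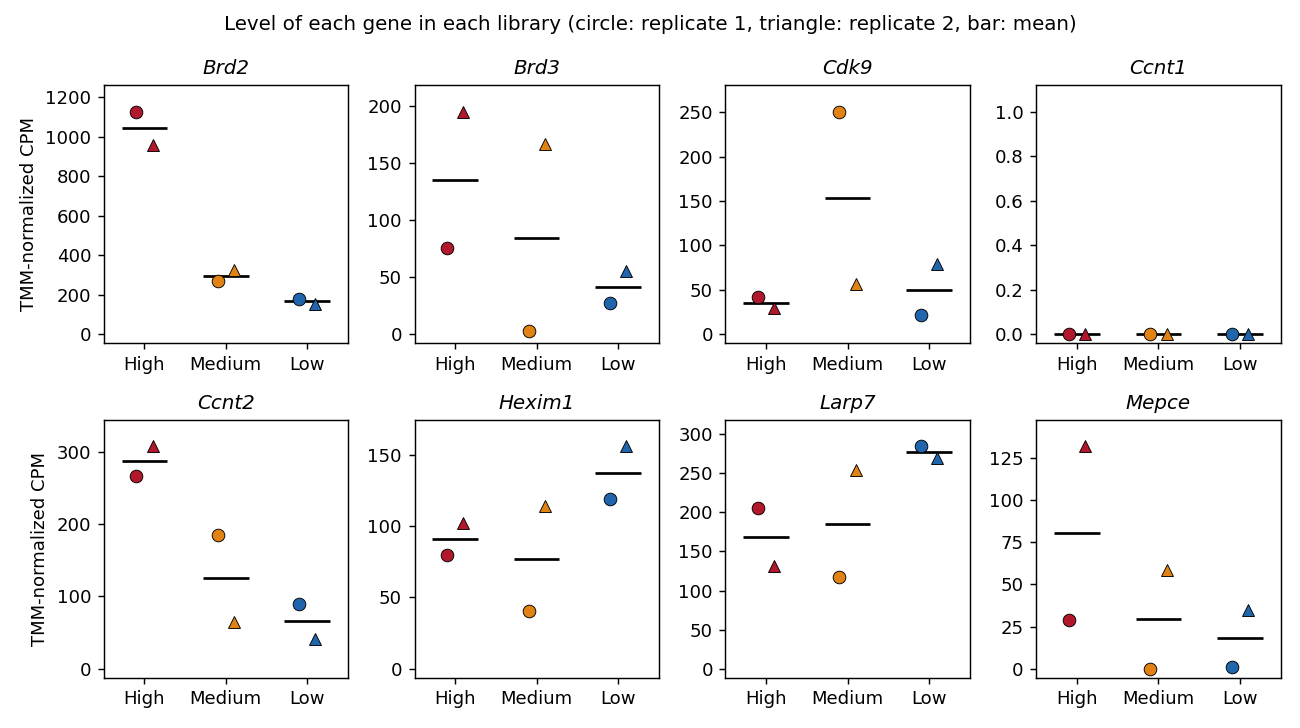
TMM-normalized CPM of each member (y axis, its own scale per panel) on the High, Medium and Low films (x axis), with circles for replicate 1, triangles for replicate 2 and a bar at the mean. The 2 Brd2 libraries of each film sit close together at 1128 and 958, 266 and 324, and 180 and 153 CPM, whereas Brd3, Cdk9 and Mepce spread widely on Medium, and Ccnt1 is at 0 throughout.

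Between the films below High, Brd2 was lower on Low than on Medium in both libraries, by a log2 fold change of -0.83 with an SE of 0.31 and a 95% interval of -1.52 to -0.14. The unadjusted p of edgeR's quasi-likelihood test was 0.0233 and the adjusted p was 1, so the difference did not pass the threshold over all genes. The SE, interval and p rest on a spread shared with the High libraries, through which Brd2 was chosen, so they are not independent of that choice. The adjusted p ran from 0.0524 to 1 over the alternatives. Of all genes tested, 1.51% had an unadjusted p under 0.05 in this contrast and 12.6% had lower Low libraries without overlap. No gene at all was called by edgeR (117 had an unadjusted p under 0.05), whereas DESeq2 called 107, none of them a member.

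Brd3, the second BET gene expressed in most tissues, varied far more between replicates than Brd2. Its level was 75.6 and 195 CPM on High, 2.57 and 167 CPM on Medium, and 26.9 and 55.7 CPM on Low. The counts behind the Medium values were 15 and 1018, so the 2 libraries of this film disagreed by more than any difference between group means. Both Low libraries were below both High libraries, as for 18.0% of all genes tested, and Medium overlapped them both. The log2 fold change for Low and Medium against High was -1.19 with an SE of 1.21, and it was -3.73 without Medium replicate 2 and -0.35 without High replicate 2. That for Low against Medium was -1.04 with a 95% interval of -4.29 to 2.22 and an adjusted p of 1 in edgeR's quasi-likelihood test. Without Medium replicate 2 the fold change of Low against Medium turned to 4.01.

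Brdt, a BET gene of the testis, had no count in any library. Brd2 and Brd3 both had negative fold changes for Low and Medium against High, beside a median of -0.12 on the log2 scale over all genes.

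Of the P-TEFb genes, Ccnt2, a cyclin partner of Cdk9, was lower off the High film in every library. Its level was 266 and 308 CPM on High, 185 and 65.0 CPM on Medium, and 90.1 and 41.3 CPM on Low. High did not overlap the other films, and lower Medium than High libraries without overlap were found for 18.6% of all genes tested, whereas Medium and Low overlapped each other. The group means were 287 ± 29.4, 125 ± 85.0 and 65.7 ± 34.5 CPM. The log2 fold change for Low and Medium against High was -1.66 with an SE of 0.56, and edgeR's quasi-likelihood test did not call it. DESeq2 called Ccnt2 for Low against High, with a log2 fold change of -2.18. In that contrast DESeq2 called 279 of the 7729 genes and edgeR 4, and nothing is read from this call. For Low against Medium the log2 fold change was -0.93 with a 95% interval of -2.45 to 0.60 and an adjusted p of 1 by edgeR, and without Medium replicate 1 it was 0.017.

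Cdk9, the kinase itself, had its highest value in 1 Medium library. It was at 41.2 and 29.6 CPM on High, 251 and 56.6 CPM on Medium, and 21.2 and 79.2 CPM on Low. Both Medium libraries were above both High libraries, as for 16.2% of all genes tested, and Low overlapped High and Medium. The log2 fold change for Medium against High was 2.12 with an SE of 1.19, and without Medium replicate 1 it was 0.68. That for Low against Medium was -1.61 with a 95% interval of -4.22 to 0.99 and an adjusted p of 1 by edgeR, and it was -0.17 without Medium replicate 1 and -2.86 without Low replicate 2. Ccnt1, the other T-type cyclin, had 0 counts in all 6 libraries, where the floor was 0.435 to 0.716 CPM per library. That floor covers counting error only and does not exclude a higher level. Mepce, for example, was at 0 CPM in Medium replicate 1 and 58.7 CPM in Medium replicate 2.

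Of the 7SK genes, Hexim1 and Larp7 had their highest levels on Low, although neither was called. Hexim1, which inhibits the kinase within the 7SK particle, was at 79.5 and 102 CPM on High, 40.2 and 114 CPM on Medium, and 119 and 156 CPM on Low. Both Low libraries were above every High and Medium library, and 19.4% of all genes had higher Low than High libraries without overlap. The log2 fold change was 0.60 with an SE of 0.85 for Low against High, and 0.83 with a 95% interval of -1.07 to 2.74 and an adjusted p of 1 by edgeR for Low against Medium. The latter was 0.27 without Medium replicate 1 and 1.80 without Medium replicate 2, and the former 0.39 without Low replicate 2. Of all genes tested, 16.3% had higher Low than Medium libraries without overlap.

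Larp7, the 7SK RNA-binding protein, was at 206 and 132 CPM on High, 117 and 254 CPM on Medium, and 284 and 270 CPM on Low. Both Low libraries were again above all others. Low was higher without overlap for 19.4% of all genes tested against High and 16.3% against Medium, and the share with both was not computed. The spread of the Low libraries was small, with a mean of 277 ± 10.4 CPM beside 169 ± 52.6 on High and 185 ± 96.5 on Medium. The log2 fold change was 0.71 with an SE of 0.54 for Low against High, and 0.43 without High replicate 2. For Low against Medium it was 0.58 with a 95% interval of -0.63 to 1.78 and an adjusted p of 1 by edgeR, and it was 0.13 without Medium replicate 1 and 1.26 without Medium replicate 2. Leaving out High replicate 1 gave 1.07 for Low against High. Neither Hexim1 nor Larp7 can be said to differ between films beyond the replicate spread.

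Mepce, the capping enzyme of 7SK RNA, had the least stable values. It was at 28.6 and 132 CPM on High, 0 and 58.7 CPM on Medium, and 1.01 and 35.1 CPM on Low, and the 3 films overlapped. In each film replicate 2 was the higher library, although no pairing of the libraries by replicate number was seen over all genes. The log2 fold change for Low against Medium was -0.70 with a 95% interval of -6.34 to 4.93, and it ran from -4.83 without Low replicate 2 to 9.64 without Medium replicate 2, which leaves Medium at 0. Hexim2, the paralog of Hexim1 and no member of the set, is named here after its values were seen. It had 0 and 50 counts on High, 0 and 0 on Medium, and 535 and 200 on Low. The 6 tested genes of the P-TEFb and 7SK list, Hexim2 included, had 3 positive and 3 negative fold changes for Low and Medium against High, with a median of -0.74 on the log2 scale, or -0.03 with Hexim2 taken at the floor of 3 counts on Medium.

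**Figure D2:**
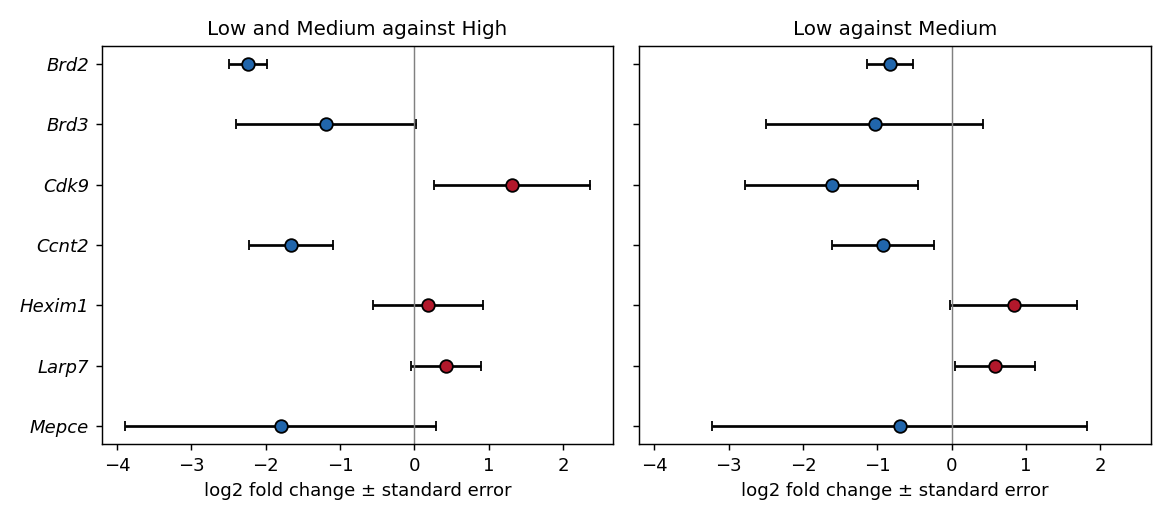
Log2 fold change (x axis) of each tested member, with bars of 1 standard error, for Low and Medium against High (left) and Low against Medium (right), blue where negative and red where positive. Brd2 has the shortest bars and lies at -2.24 on the left and -0.83 on the right, and Mepce has the longest bars.

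In the contrast of Low with Medium, all 7 tested members had an adjusted p of 1 in edgeR's quasi-likelihood test, and Brd2 was the only one with a 95% interval that did not reach 0. Brd2 was lower on Low, and Hexim1 and Larp7 higher, without overlap of the libraries, which was the case for 29.0% of all genes in either direction. The intervals of Brd3, Cdk9 and Mepce spanned several log2 units each, so that sizeable differences in either direction were not detectable at this spread.

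Across the 6 libraries the profile of Ccnt2 was the most like that of Brd2 among the members, with a Pearson r of 0.84 and a Spearman rho of 0.77 of log2(CPM + 1). Mepce and Brd3 had Pearson r of 0.51 and 0.45 but Spearman rho of 0.31 and 0.60, so that their order depended on the measure. Hexim1, Cdk9 and Larp7 had r of -0.24, -0.29 and -0.46 and rho of -0.66, -0.26 and -0.54. These 6 points are 3 films of 2 libraries each, so the values are a description and carry no test.

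Among 2720 genes with a mean log2 CPM of at least 6, the 5 whose profile was most like that of Brd2 were Trim35, Rbm39, Riok3, Ncor1 and Tra2b, with Pearson r between 0.973 and 0.995 and Spearman rho between 0.943 and 1. Trim35, a tripartite motif protein, was at 309 and 242 CPM on High, 109 and 133 on Medium, and 84.6 and 70.5 on Low. Rbm39, a splicing factor, was at 802 and 780 CPM on High, 498 and 553 on Medium, and 473 and 419 on Low. Trim35 had the same order of libraries as Brd2, and so had Rbm39 and Riok3, although the levels of Rbm39 lay closer together. Riok3, an atypical kinase, was at 499 and 383 CPM on High, 208 and 230 on Medium, and 197 and 155 on Low. Ncor1, a nuclear receptor corepressor, was at 471 and 543 CPM on High, 281 and 318 on Medium, and 264 and 222 on Low. Tra2b, a splicing regulator, was at 709 and 564 CPM on High, 359 and 393 on Medium, and 314 and 337 on Low. All 5 genes were higher in both High libraries than in any other, with a smaller ratio of highest to lowest level than Brd2. They were picked for this likeness out of many genes.

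**Figure D3:**
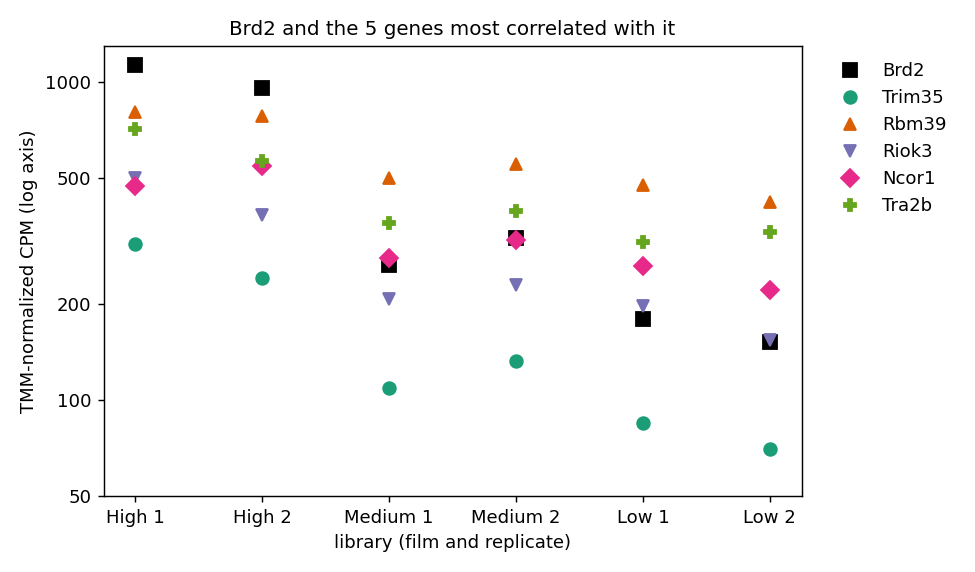
TMM-normalized CPM on a log axis (y) of Brd2 and the 5 genes with the highest Pearson correlation with it in each of the 6 libraries (x). Brd2 (squares) spans from 1128 to 153 CPM and the other genes span less, all with their highest values in the High libraries.

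Around the members, 95 further genes of transcription elongation, bromodomain proteins and histone acetylation were listed, of which 80 were in the tables and 68 were tested. None was called in any of the 4 contrasts by edgeR, and 4 had an unadjusted p under 0.05 for Low and Medium against High, where this was the case for 5.50% of all genes. These 4 were Crebbp, Brd1, Polr2g and Polr2f. Both High libraries were above all other libraries for 7 of the 68 genes (10.3%) and below them for 4 (5.88%), beside 10.1% and 8.06% of all genes tested. The median log2 fold change of the 68 was -0.19, beside -0.12 over all genes.

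The machinery that P-TEFb acts on showed no group with a gene called by edgeR. In the super elongation complex, a carrier of P-TEFb, 4 of the 9 genes in the tables were tested, 3 with negative and 1 with positive fold changes for Low and Medium against High, and the median was -0.66 on the log2 scale. Its scaffold Aff4 was at 128 ± 53.0 CPM on High, 34.0 ± 48.0 on Medium and 91.9 ± 81.6 on Low, and its subunit Eaf1 at 60.7 ± 72.0, 82.7 ± 82.5 and 83.5 ± 51.1 CPM. The 6 tested NELF and DSIF genes divided into 3 negative and 3 positive fold changes with a median of 0.03. The DSIF gene Supt4h1 was at 57.6 ± 45.6 CPM on High, 163 ± 81.5 on Medium and 133 ± 89.4 on Low, and the NELF gene Nelfa at 74.6 ± 32.9, 88.3 ± 40.0 and 139 ± 28.4 CPM. For the genes named from these lists, the SDs were as large as most of the differences between films. In each list 1 tested gene was lower on Medium and Low than on High without overlap, as were 10.1% of all genes tested.

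Of the 12 genes for the PAF complex and further elongation factors, 9 had negative fold changes, with a median of -0.31. The PAF-associated gene Rtf1 was at 379 ± 2.85 CPM on High, 333 ± 51.4 on Medium and 401 ± 267 on Low, and the histone chaperone gene Ssrp1 at 266 ± 9.23, 238 ± 49.9 and 293 ± 37.1 CPM. The 7 other kinases and cyclins of the polymerase tail had a median of 0.15. Ccnh, the cyclin of the TFIIH kinase, was at 72.3 and 90.7 CPM on High and higher in all 4 other libraries, at 115 to 240 CPM, with a log2 fold change of 1.14 and an adjusted p of 0.801 by edgeR. Ccnk, the cyclin of Cdk12 and Cdk13, was at 143 ± 98.1 CPM on High, 165 ± 10.1 on Medium and 135 ± 31.3 on Low.

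The 12 tested subunits of RNA polymerase II had a median of 0.04, with 7 positive and 5 negative fold changes. Polr2l was at 523 ± 7.05 CPM on High, 426 ± 57.3 on Medium and 408 ± 271 on Low, and Polr2k at 193 ± 109, 407 ± 270 and 193 ± 111 CPM. Among the 13 tested bromodomain genes outside the BET family, 11 had negative and 2 positive fold changes for Low and Medium against High, with a median of -0.92 beside -0.12 over all genes. None of them was called by edgeR in any contrast, whereas DESeq2 called Brd1 for Low and Medium against High and for Medium against High, and Baz1b for Low against High. In these contrasts DESeq2 called 348, 303 and 279 of the 7729 genes, and nothing is read from these calls. Trim28, a corepressor, was at 307 ± 53.2 CPM on High, 292 ± 148 on Medium and 279 ± 198 on Low. Baz1b, a chromatin remodeler subunit, was at 252 and 256 CPM on High, 173 and 263 CPM on Medium, and 98.1 and 100 CPM on Low, with a log2 fold change of -0.79 and an adjusted p of 0.801 by edgeR for Low and Medium against High.

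**Figure D4:**
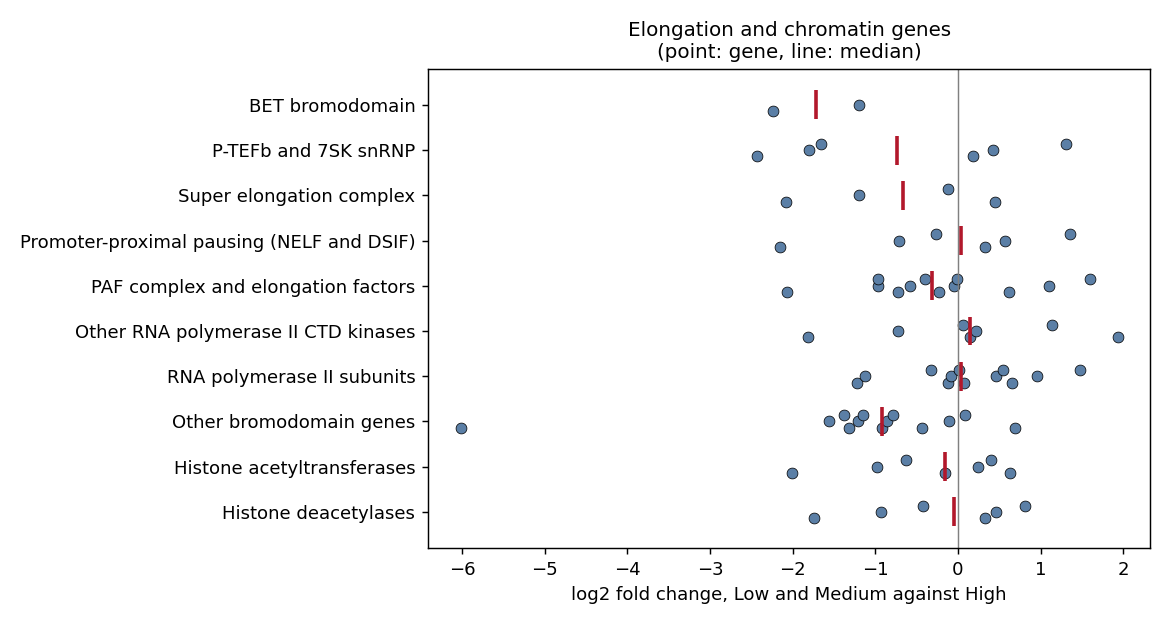
Log2 fold change for Low and Medium against High (x axis) of each tested gene (points) in the lists of elongation and chromatin genes (y axis), members included, with a line at each list's median. Brd2 and Brd3 of the BET list lie at -2.24 and -1.19, the median of the other bromodomain genes lies at -0.92, the medians of the remaining lists lie between -0.74 and 0.15, and the point farthest left is Trim24 at -6.02, which was at 0 in 4 libraries.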

How the data were processed

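RNA from 6 libraries was sequenced with QuantSeq, which reads the 3′ end of polyadenylated transcripts. The authors aligned the single-end reads by Bowtie2 and used bedtools to count alignments, multiple ones included, on each gene. They deposited the raw counts, with rn6 given as the build in the processing notes. Versions and annotation are not given in the sources used here. Genes with near-identical copies are uncertain, and of the 17048 rows 167 repeat a symbol. The labels name Trizol and the methods a Ribospin kit for the RNA. There were 0 further value columns.

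The fits were run in edgeR 4.0.16 and, as an alternative, in DESeq2 1.42.0 under R 4.3.3. For the 7729 genes passing filterByExpr, the quasi-likelihood test of edgeR with TMM factors was applied in one fit of 3 group means, with Benjamini-Hochberg adjustment over all of them and a threshold of 0.05. The fit had 3 residual and 6.96 prior degrees of freedom. On simulated counts with known changes the fit gave the directions of the changes, most changed genes were not called, and false calls were common. Fold changes of genes with groups at 0 depend on the prior count. Groups came from the sample labels.

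The members and lists were chosen with earlier results of these data known. The text names every member. Of each list it names any gene called in a contrast, and otherwise the 2 tested genes with the highest mean level. It also names the 5 genes most correlated with Brd2. A listed gene is not reported here. Brd1, Polr2g, Polr2f, Hexim2, Brdt, Trim24, Cdk13 and Hdac1 were named after their values were seen. Alternatives were DESeq2, RLE factors, library sizes only, no filter, no ribosomal RNA rows, only the groups compared, a replicate block, and leaving out each library.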

Additional observations from a re-analysis of the deposited data

How the results depend on the processing

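The log2 fold change of Brd2 for Low and Medium against High was -2.35 to -2.11 when a library was left out and -2.29 to -1.85 otherwise. Brd2 was chosen through this contrast, and both its High libraries lay above all others. Leaving out 1 library could therefore not turn its sign, and the ranges describe the size only. With 2 libraries per film and a large spread, differences of the size seen in most members were not detectable. How many genes were called depended strongly on the method, and the cause was not tested.

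For Low and Medium against High, 10 genes and 1 member were called. DESeq2 called 348 genes, 1 of them a listed pathway gene (Brd1), and without a filter on low counts 68 were called. For Low against High, 4 genes and 1 member were called. With library sizes only this became 0 genes and 0 members, with DESeq2 279 genes, 2 members (Brd2 and Ccnt2) and 2 pathway genes (Crebbp and Baz1b), without a filter 34 genes and without ribosomal RNA rows 2 genes. With only the groups compared, 0 members were called. For Medium against High, 1 gene and 0 members were called. With library sizes only it was 0 genes, with DESeq2 303 genes, 1 member (Brd2) and 1 pathway gene (Brd1), and without a filter 48 genes and 1 member (Brd2). For Low against Medium, 0 genes were called by edgeR, 107 by DESeq2 and 5 without a filter. With library sizes only the log2 fold change of Hexim1 for Medium against High was 0.13 instead of -0.24.

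Leaving out 1 library with the same genes tested gave 0 to 4 genes called for Low and Medium against High, 0 to 3 for Low against High, 0 to 1 for Medium against High and 0 for Low against Medium, with 0 members and 0 pathway genes in each. With the filter reapplied, which was chosen after seeing the data, the counts were 34 to 242, 19 to 65, 11 to 275 and 0 to 194 genes. Members called were then 1 in each of the first 2 contrasts, 0 to 1 for Medium against High and 0 for Low against Medium. Pathway genes called were 0 to 3, 0 to 1, 0 to 3 and 0 to 2, and the highest counts of 242, 275 and 194 genes were without Medium replicate 2, where Aff4, Cdk13 and Hdac1 were called against High.

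Some member fold changes turned sign when 1 library was left out. On the log2 scale Hexim1 ranged from -0.31 to 0.46 for Low and Medium against High and from -1.21 to 0.33 for Medium against High, and Cdk9 from -0.74 to 1.16 for Low against High. For Medium against High, Brd3 ranged from -5.74 to 0.30, Larp7 from -0.56 to 0.59 and Mepce from -11.8 to 0.036. For Low against Medium, Brd3 ranged from -2.01 to 4.01, Mepce from -4.83 to 9.64 and Ccnt2 from -1.60 to 0.017.

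No pairing of the libraries by replicate number was seen over all genes. Deviations from the group means of same-numbered libraries correlated at 0.0066 (High and Medium), 0.0034 (High and Low) and 0.0073 (Medium and Low). At this spread between libraries a weak pairing could be missed, and the ribosomal RNA share was higher in replicate 2 of every film. A fit with the replicate number as a block called 57 genes for Low and Medium against High, 30 for Low against High, 39 for Medium against High, where Brd2 was then the 1 member called, and 0 for Low against Medium. Under the block the log2 fold changes for Low against Medium were 0.18 for Brd3 and 0.28 for Mepce.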

Other observations

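Genes that write and erase histone acetylation, the mark that BET proteins read, were described in the same fit. Of the histone acetyltransferases 7 were tested, 3 with positive and 4 with negative fold changes for Low and Medium against High, and none was called by edgeR. Crebbp, a broad acetyltransferase and coactivator, was at 212 and 344 CPM on High, 163 and 193 CPM on Medium, and 95.9 and 127 CPM on Low. All 4 libraries of the lower films lay below both High libraries, as for 10.1% of all genes tested. The log2 fold change of Crebbp for Low and Medium against High was -0.98, with an adjusted p of 0.801 in edgeR's quasi-likelihood test. DESeq2 called Crebbp for Low against High among 279 of the 7729 genes, and nothing is read from this call. Kat6a was at 277 ± 49.7 CPM on High, 191 ± 110 on Medium and 168 ± 57.0 on Low (SD, n = 2).

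The 6 tested histone deacetylases divided into 3 positive and 3 negative fold changes with a median of -0.05 on the log2 scale, and none was called by edgeR. Hdac2 was at 240 ± 78.1 CPM on High, 297 ± 95.2 on Medium and 306 ± 41.0 on Low. Hdac5 was at 129 ± 20.6 CPM on High, 210 ± 143 on Medium and 150 ± 72.3 on Low, which is no difference beyond the replicate spread.

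Col1a1, a collagen gene on the list of endothelial and meningeal markers, had 2005 counts in Medium replicate 2 and at most 116 in any other library, and the other 5 genes of that list were at 0. Of the astrocyte markers Aqp4, Slc1a2 and Aldh1l1 were at 0, of the oligodendrocyte markers Mag and Sox10, and of the microglia markers Tmem119, Csf1r and Cx3cr1.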
